A study of Mus musculus with 6 samples.

Results

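The cytosolic ribosomal protein genes are the 76 protein-coding RefSeq genes of the mouse whose symbols name a protein of the large (46 genes) or the small (30 genes) subunit of the cytosolic ribosome, out of 21887 protein-coding genes in all. They were chosen by symbol alone, as Rpl or Rps with a number and at most a letter a or x, together with Rplp0, Rplp1, Rplp2 and Rpsa. Pseudogenes and the ribosomal S6 kinase genes were left out. Chromatin openness at these genes was read from ATAC-seq, in which a transposase cuts accessible DNA and regions rich in cuts are listed as peaks. The cells were immortalised mouse atrioventricular cushion mesenchymal cells, the mesenchyme from which heart valves and septa form, from the H-2Kb-tsA58 transgenic strain, in which a heat-sensitive viral T antigen keeps cells dividing. All were at passage 6. The high-glucose group (3 libraries) was kept for 48 h in 25 mM glucose and the normal-glucose group (3 libraries) for 48 h in 5.5 mM glucose, in cells otherwise maintained at 5.5 mM. The labels do not say whether libraries of a group came from separate cultures, so the replicate spread behind each p-value may be purely technical.

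The deposited lists hold 22156, 25020 and 22598 peaks for high-glucose libraries 1, 2 and 3, and 24263, 66 and 40350 peaks for normal-glucose libraries 1, 2 and 3. Normal-glucose library 2, with 66 peaks and none at the 76 genes, did not enter the comparisons, which leaves 3 high-glucose and 2 normal-glucose libraries. The depth of the libraries is unknown. In these 5 libraries 11 of 15 cushion mesenchyme markers had a peak at a gene end in every library, against 0 of 10 endothelial, 0 of 10 cardiomyocyte, 1 of 10 blood and 0 of 10 epithelial markers.

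Ribosomal proteins are made in near-equal amounts and assembled on ribosomal RNA in the nucleolus. Their genes are active in nearly every cell, and most are short, with a promoter rich in G and C and a start inside a run of pyrimidines. That run, the terminal oligopyrimidine (TOP) tract, places translation of their mRNAs under the control of the growth kinase mTOR and of Larp1. Surplus proteins of the large subunit, among them Rpl5, Rpl11 and Rpl23, bind Mdm2 and so raise p53.

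Most of the ribosomal protein genes had open chromatin in both conditions, and their number did not differ between the conditions beyond the spread of the libraries. A gene is called open here when a listed peak overlaps, by at least 1 bp, the window of 1 kb either side of either gene end. In high glucose 50, 63 and 58 of the 76 genes were open in libraries 1, 2 and 3, and in normal glucose 56 and 68 in libraries 1 and 3. As shares, these are 65.8%, 82.9% and 76.3% in high glucose, where 41.6%, 44.5% and 43.0% of all protein-coding genes were open, and 73.7% and 89.5% in normal glucose, where 42.4% and 49.8% of all genes were open. The lowest count was in a high-glucose library and the highest in a normal-glucose library, the one with the longest list, and the groups overlapped. The mean was 57.0 ± 6.56 genes (SD) over the 3 high-glucose libraries and 62.0 ± 8.49 (SD) over the 2 normal-glucose libraries, a difference of -5 genes (two-sided exact permutation test, p = 0.600). With 3 libraries against 2 this test cannot give a p below 0.2.

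**Figure D1:**
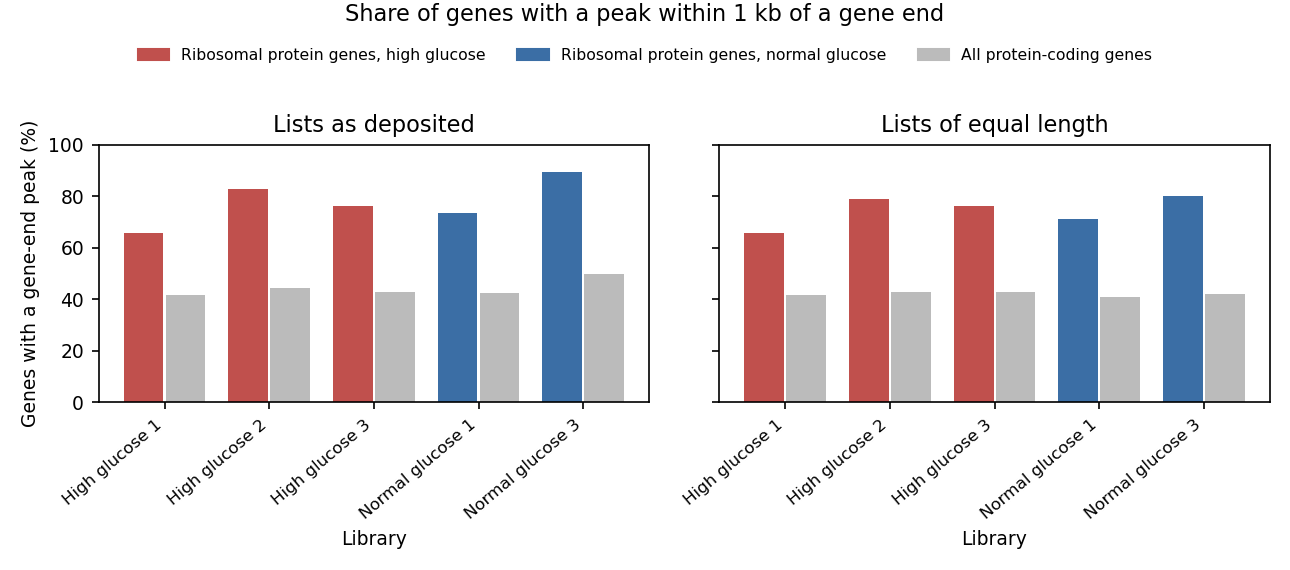
Percentage of the 76 ribosomal protein genes (coloured bars, red for high glucose and blue for normal glucose) and of all 21887 protein-coding genes (grey bars) that were open, by library, for the lists as deposited (left) and cut to equal length (right). The ribosomal protein genes lie between 65.8% and 89.5% as deposited, above the 41.6% to 49.8% of all genes in every library.

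The lists differ in length, and a longer list reaches weaker sites. Cut to the 22149 peaks with the highest −log10 p in each library, they left 50, 60 and 58 genes open in high glucose, and 54 and 61 in normal glucose. All genes were then open at 41.6%, 42.8% and 42.8% in high glucose, and at 41.0% and 42.1% in normal glucose. The mean became 56.0 ± 5.29 genes (SD) over the 3 high-glucose libraries and 57.5 ± 4.95 (SD) over the 2 normal-glucose libraries, a difference of -1.50 (two-sided exact permutation test, p = 0.800). In bulk chromatin a site open in fewer cells and a site less open in each cell cannot be told apart.

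Across the 5 libraries, 43 of the 76 genes were open in every library (56.6%, where 35.7% of all genes were). Another 26 were open in 1 to 4 libraries (34.2%, where 16.3% of all genes were), and 7 in none (9.21%, where 48.0% of all genes were). By number of libraries, 3 genes were open in a single library, 4 in 2, 7 in 3 and 12 in 4, where 4.05%, 3.34%, 3.54% and 5.36% of all genes were. At equal list length 43 were again open in every library, where 34.0% of all genes were, and 8 in none, where 50.6% of all genes were. The subunits gave 27 of 46 large-subunit genes (58.7%) and 16 of 30 small-subunit genes (53.3%) open in every library. None of the genes was open in every high-glucose library and no normal-glucose library, a pattern that 0.0640% of all genes showed. A single gene, Rps24, was open in both normal-glucose libraries and no high-glucose library, a pattern of 0.699% of all genes. At equal list length neither pattern was shown by any of the 76, where 0.484% of all genes were open only in high glucose and 0.210% only in normal glucose.

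**Figure D2:**
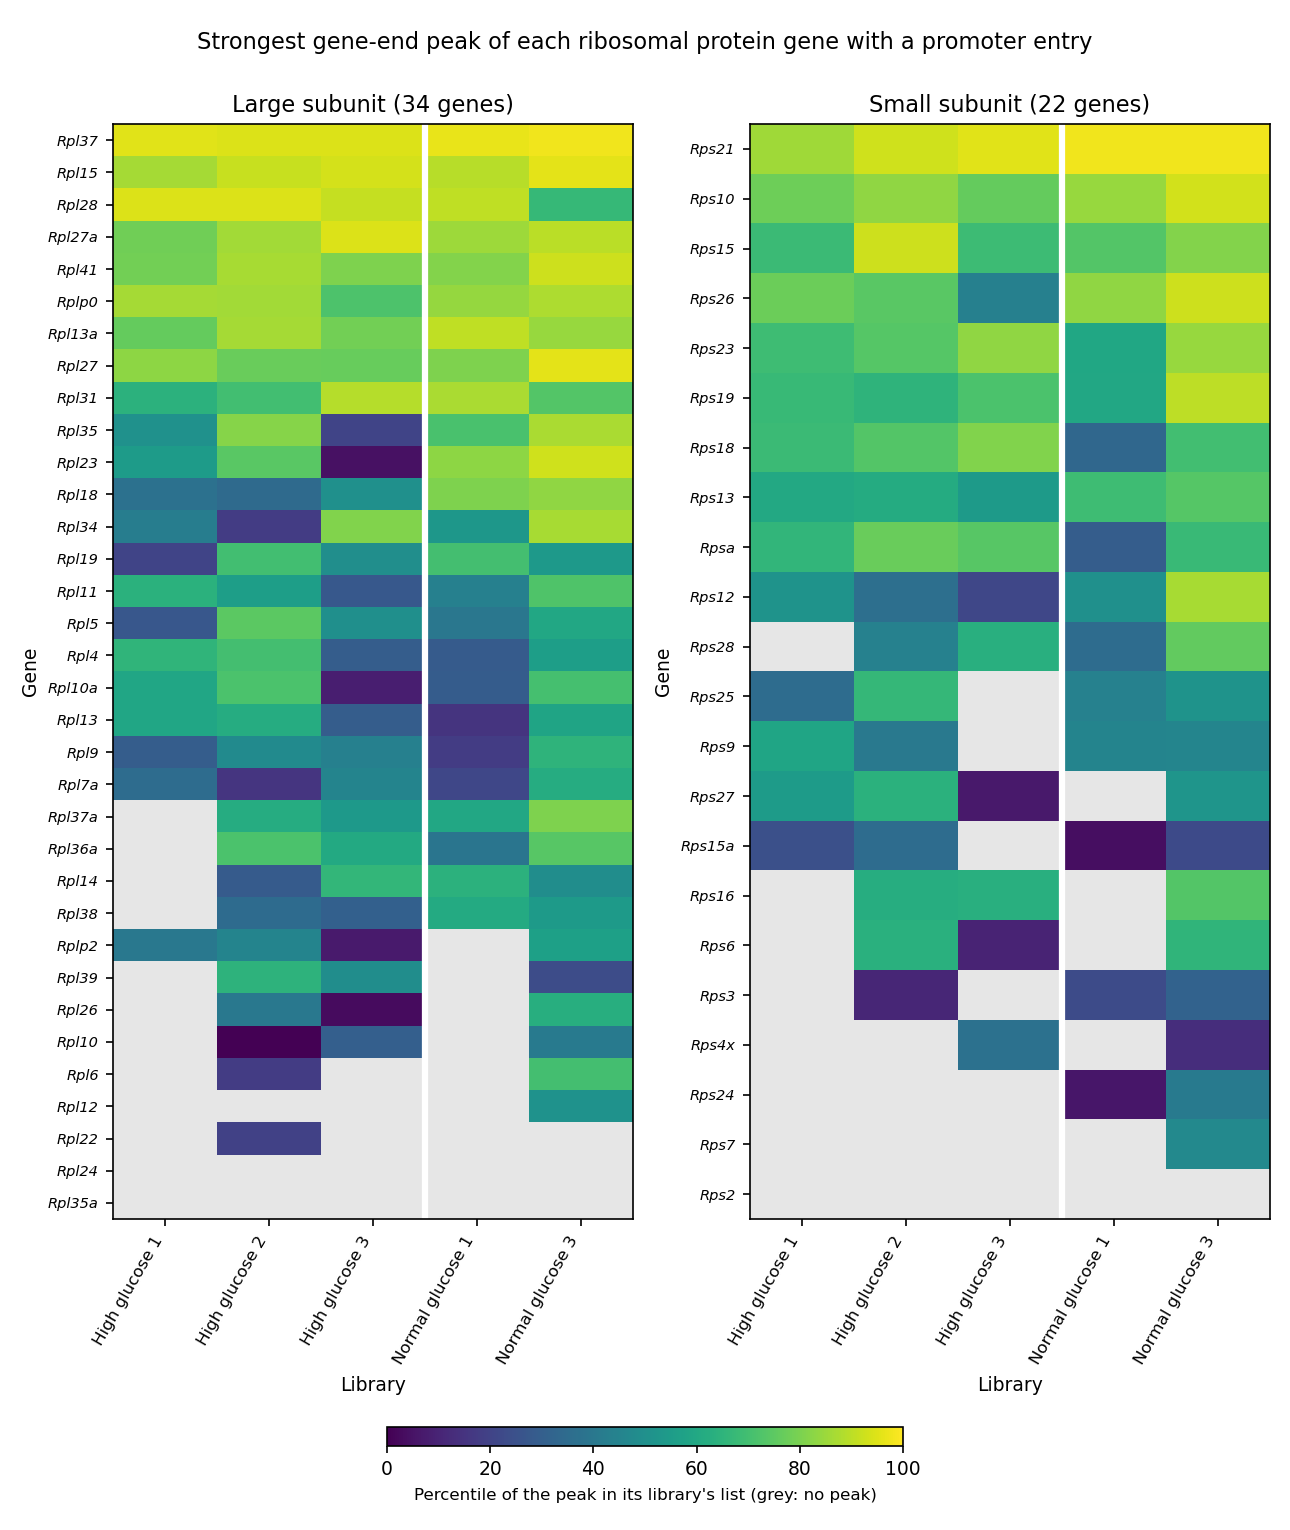
Strongest peak at either end of each large-subunit (left) and small-subunit gene (right) among the 56 with a promoter entry, as its percentile by −log10 p within its own library's list (colour, 0 to 100), with grey where no peak was listed. Columns are the 3 high-glucose and then the 2 normal-glucose libraries. Rpl37 and Rps21 head the 2 subunits in each panel, and genes open in none of the libraries, such as Rpl24 and Rps2, lie at the bottom.

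Peaks were ranked within their own list by the authors' −log10 p, so that a percentile of 90 means a peak stronger than 90% of that library's peaks. Because the lists differ in length, these percentiles describe each library alone. Most ribosomal protein genes had peaks of middle rank. The median percentile of the open ones was 62.2, 67.9 and 54.9 in high-glucose libraries 1, 2 and 3, and 55.8 and 70.4 in normal-glucose libraries 1 and 3. For all open genes the medians were higher in each library, at 74.2, 76.2 and 74.8 in high glucose, and 73.6 and 81.1 in normal glucose. In these 5 libraries the ribosomal protein genes thus had a larger share of open genes than all genes had, with peaks of lower median rank.

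**Figure D3:**
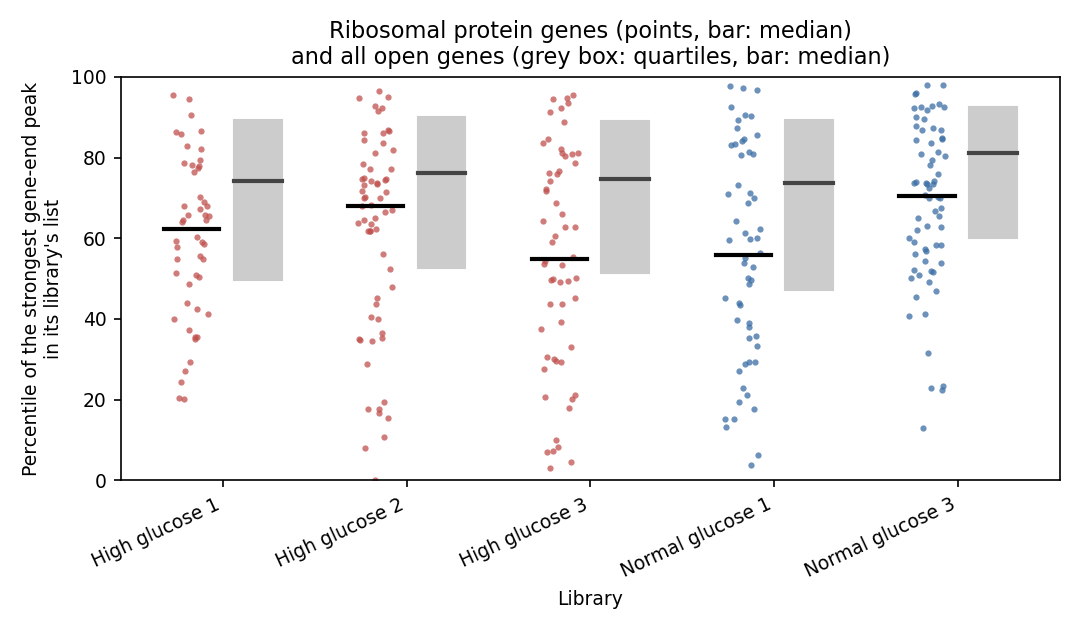
Percentile of the strongest gene-end peak of each open ribosomal protein gene (points, with a black bar at the median) by library, beside the quartiles (grey box) and median (dark bar) of all open genes. The points spread over nearly the whole scale, and their medians, 54.9 to 70.4, lie below those of all open genes, 73.6 to 81.1, in each of the 5 libraries.

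For the 43 genes open in every list of equal length, the median percentile was 65.6, 71.0 and 68.1 in high glucose, and 58.7 and 64.1 in normal glucose, so that the 3 high-glucose values lay above both normal-glucose values. The mean of these medians was 68.2 ± 2.67 (SD) over the 3 high-glucose libraries and 61.4 ± 3.83 (SD) over the 2 normal-glucose libraries. The difference of 6.79 percentile points had the smallest p that 3 against 2 allows (two-sided exact permutation test, p = 0.2). The 7435 genes of the whole genome open in every list of equal length had medians of 80.3, 81.1 and 81.2 in high glucose, and 78.6 and 79.7 in normal glucose, so that high glucose also lay above normal glucose there. Where only peaks at annotated starts were read, the difference for the ribosomal protein genes was -0.458.

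Among the strongest peaks were those of Rpl37, Rpl15, Rps21, Rps29 and Rpl41, taken by the percentile in the library where each was weakest. Rpl37, a zinc-binding protein of the large subunit, reached percentiles of 95.4, 94.8 and 94.8 in high glucose, and 96.7 and 98.0 in normal glucose. Rps21, of the small subunit, reached 85.8, 92.7 and 95.5 in high glucose, and 97.7 and 98.0 in normal glucose. Rpl15, of the large subunit and mutated in some human families with the red-cell disorder Diamond-Blackfan anaemia, reached 86.4, 91.6 and 93.4 in high glucose, and 89.3 and 95.8 in normal glucose. These 3 genes were high in every library of both conditions. Rps29, a zinc-binding protein of the small subunit, ranged from 82.2 to 92.6. Rpl41, which encodes a very short basic peptide of the large subunit, ranged from 78.6 to 92.2. At Rpl41 the strongest peak lay 1413 to 1471 bp beyond the start, past the far end of the gene and within 1 kb of an end of Zc3h10. The peak at its own start ranked lower, at 55.2, 71.1 and 64.9 in high glucose, and 14.4 and 65.5 in normal glucose. In all, 10 of the 43 genes open in every library ranked at or above percentile 75 in each, among them Rpl13a, Rpl27, Rpl27a and Rps10. The lowest percentile of a gene over the libraries had a median of 43.6 for these 43. For all 7818 genes open in every library that median was higher, at 67.0.

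The promoters of the 3 highest ranked genes with a promoter entry are shown because their peaks were the strongest of the group in every library. Each runs from 100 bases before the annotated start to 30 bases from it, from RefSeq on GRCm38.p6, 5′ to 3′ on the gene's own strand. Capitals mark matches to the motifs described with the promoters as a whole (CGGAAG or CTTCCG for ETS factors, GGGCGG or CCGCCC for SP/KLF factors, CCAAT or ATTGG for NFY) and TOP-like pyrimidine runs at the start. In Rpl37 and Rps21 neighbouring matches overlap or touch, and form a single run of capitals.
Rpl37, chr15:5116513-5116642, plus strand: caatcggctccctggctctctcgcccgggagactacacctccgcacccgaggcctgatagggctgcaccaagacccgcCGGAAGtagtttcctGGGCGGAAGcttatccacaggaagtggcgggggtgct
Rpl15, chr14:18270957-18271086, minus strand: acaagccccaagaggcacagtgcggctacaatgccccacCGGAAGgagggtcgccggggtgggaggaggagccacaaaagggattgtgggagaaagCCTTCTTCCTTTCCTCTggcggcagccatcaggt
Rps21, chr2:180257279-180257408, plus strand: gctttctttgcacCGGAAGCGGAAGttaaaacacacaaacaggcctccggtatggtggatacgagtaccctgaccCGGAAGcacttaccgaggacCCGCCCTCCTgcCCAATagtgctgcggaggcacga
All 3 hold the ETS motif, and Rps21 holds it 3 times. Rpl15 starts inside a pyrimidine run of 17 bases, and Rps21 inside a shorter one of 7 bases. In each of the 5 libraries the peak summit lay upstream of the start, by 112 to 247 bp at Rpl37, 117 to 210 bp at Rpl15 and 128 to 207 bp at Rps21.

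At the other end of the order stood Rpl23, Rpl10a, Rpl30, Rpl13, Rpl7a and Rpl34, all of the large subunit and open in every library. Rpl23, which binds Mdm2, had percentiles of 54.9, 74.5 and 4.58 in high glucose, and 83.2 and 92.7 in normal glucose. It was thus low in high-glucose library 3 alone. Rpl10a likewise had 59.2, 71.8 and 8.30 in high glucose, and 29.2 and 70.6 in normal glucose. Rpl30 and Rpl13 were weakest in normal-glucose library 1, at 15.1 each, and Rpl7a and Rpl34 in high-glucose library 2, at 15.5 and 17.6. Altogether 12 of the 43 genes fell under percentile 25 in at least 1 library. The median lowest percentile was 43.6 for the 43, against 67.0 for all genes open in every library.

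The stalk of the large subunit, which recruits translation factors, was open unevenly. Rplp0, its base, ranked 86.6, 86.0 and 72.2 in high glucose, and 84.0 and 87.8 in normal glucose. Rplp1, which forms the stalk's arms together with Rplp2, had no peak in high-glucose library 1, percentiles of 8.04 and 49.6 in libraries 2 and 3, and 13.1 and 22.9 in normal glucose. Rplp2 had 39.9, 45.2 and 7.37 in high glucose, and a peak of percentile 56.8 in normal-glucose library 3 alone. Among the proteins that bind Mdm2, Rpl5 ranked 27, 74.8 and 49.9 in high glucose, and 39.7 and 60 in normal glucose. Rpl11 ranked 64.0, 56.0 and 27.5 in high glucose, and 43.5 and 72.4 in normal glucose. Rps19, the gene most often mutated in human Diamond-Blackfan anaemia, ranked 67.2, 64.9 and 71.6 in high glucose, and 60.1 and 90 in normal glucose. The groups overlapped for Rplp0, Rplp1, Rpl5, Rpl11 and Rps19.

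Rps24, a small-subunit protein also mutated in some cases of that anaemia, had no gene-end peak in the 3 high-glucose libraries. In normal glucose its peak had a percentile of 6.22 in library 1 and of 40.8 in library 3. The peak of library 1 spanned chr14:24490544-24490635 and that of library 3 spanned chr14:24490601-24490763 (mm10), so that both covered 35 bp in common, just upstream of the annotated start at 24490678. The summits stood 95 bp upstream and 36 bp downstream of that start. Neither peak was among the 22149 strongest of its list, so Rps24 was open in none of the libraries at equal list length. Its −log10 q was 2.73 in library 1 and 5.92 in library 3, so at a minimum of 5 it was open in library 3 alone. Its promoter is shown because Rps24 alone among the ribosomal protein genes was open in every library of 1 condition and in none of the other.
Rps24, chr14:24490578-24490707, plus strand: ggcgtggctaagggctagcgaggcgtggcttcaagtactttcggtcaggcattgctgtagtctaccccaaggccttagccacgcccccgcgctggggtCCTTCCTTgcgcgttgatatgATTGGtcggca
The capitals mark a TOP-like run of 8 bases at the start and an NFY match, and this window holds no match to the ETS or SP/KLF letters. When overlapping peaks of the 5 libraries were merged into 49048 regions, 93 regions lay at ends of ribosomal protein genes. Of these, 45 were in all 5 libraries (48.4%, where 25.1% of all regions were) and 13 in a single library (14.0%, where 39.7% of all regions were). No region was in all high-glucose libraries alone, and 3 were in both normal-glucose libraries alone. Among these were the region at Rps24 and a second region at Rps10 (chr17:27629364-27629481), a gene that was also open in every library through another region.

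The number of the 26 genes open in 1 to 4 libraries that were open differed from library to library. Of them 7, 20 and 15 were open in high-glucose libraries 1, 2 and 3, and 13 and 25 in normal-glucose libraries 1 and 3. All genes, open at 41.6%, 44.5% and 43.0% in high glucose, and 42.4% and 49.8% in normal glucose, gave the libraries the same order. This order is therefore not particular to the ribosomal protein genes. The low count in high-glucose library 1 and the high count in normal-glucose library 3 go with the shortest and the longest list. Between these, the order differed: high-glucose library 3 had 15 with 22598 peaks, and normal-glucose library 1 had 13 with 24263 peaks. The list of high-glucose library 1 held 22156 peaks. The part of list length in single genes was not tested. Open in every library but high-glucose library 1 were 6 genes: Rpl14, Rpl36a, Rpl37a, Rpl38, Rplp1 and Rps28. Among all 21887 genes, 419 were open in every library but high-glucose library 1, more than the 142 and 251 that lacked a peak only in high-glucose library 2 or 3, and the 348 and 14 that lacked one only in normal-glucose library 1 or 3. Rpl38, whose loss gives mice short tails and altered vertebrae, had percentiles of 34.8 and 30.6 in high-glucose libraries 2 and 3, and 61.3 and 54.3 in normal glucose. Open in every library but high-glucose library 3 were Rps9, Rps15a and Rps25, and Rps27a, which encodes a fusion with ubiquitin, lacked a peak only in high-glucose library 2. Rplp2 and Rps27 lacked one only in normal-glucose library 1.

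Further down, 7 genes were open in 3 libraries. Rps6, the substrate of the S6 kinases downstream of mTOR, had percentiles of 63.4 and 9.94 in high-glucose libraries 2 and 3 and of 65.5 in normal-glucose library 3, with no peak in library 1 of either condition. Rpl26, Rpl10, Rpl39 and Rps16 were open in the same 3 libraries. Rps14, whose loss of a copy underlies the anaemia of a human myelodysplastic syndrome, and Rps3, which lines the mRNA entry channel, were open in high-glucose library 2 and in both normal-glucose libraries. Rps14 ranked 16.6 in high-glucose library 2, and 27.2 and 70.2 in normal glucose. Rps3 ranked 10.7 in high-glucose library 2, and 22.9 and 31.5 in normal glucose. Open in 2 libraries, besides Rps24, were Rpl29 (high-glucose 1 and normal-glucose 3), Rpl6 (high-glucose 2 and normal-glucose 3) and Rps4x (high-glucose 3 and normal-glucose 3). Rpl22 was open in high-glucose library 2 alone, at percentile 19.4, while Rpl12, at the base of the stalk, and Rps7 were open in normal-glucose library 3 alone, at 50.9 and 46.9.

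The 4 members on the X chromosome, Rpl10, Rpl36a, Rpl39 and Rps4x, were all in this group. None had a peak in high-glucose library 1, 3 had a peak in library 2 and 4 in library 3, while in normal glucose 1 had a peak in library 1 and 4 in library 3. Of the 72 members on autosomes, 43 were open in every library (59.7%). Over all genes, 15.8% on the X chromosome were open in every library, against 37.1% on autosomes. Among genes open in any library the shares were 49.7% on the X chromosome and 69.2% on autosomes, so the X-linked members did not stand alone in this.

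The 7 genes with no gene-end peak in the 5 lists as used here were Rpl8, near the peptidyl transferase centre, Rpl17 and Rpl23a, at the exit of the nascent chain, Rpl24, Rpl32, Rpl35a and Rps2. For Rpl23a, Rpl24, Rpl32 and Rpl35a no peak lay inside the gene either, and the nearest listed peak lay 1742 to 2420 bp away in each library. For Rpl8 it lay between 1747 and 15501 bp away. Rpl17 had a single peak inside the gene, of percentile 6.03, in normal-glucose library 3. Rps2 differed from these, because its annotated start lies inside its RefSeq span, more than 1 kb from the gene's ends. A peak stood there in every library, with percentiles of 66.1, 78.6 and 69.6 in high glucose, and 56.2 and 59.8 in normal glucose. Its summit lay 38 to 68 bp upstream of that start. The promoters of Rpl24, mutated in the Belly spot and tail mouse, and Rpl35a, mutated in some cases of human Diamond-Blackfan anaemia, are shown as starts with no listed peak, and that of Rpl12 as a start listed in 1 library.
Rpl24, chr16:55966175-55966304, plus strand: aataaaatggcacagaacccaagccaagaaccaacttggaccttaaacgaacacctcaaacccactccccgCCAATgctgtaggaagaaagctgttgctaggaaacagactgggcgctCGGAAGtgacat
Rpl35a, chr16:33056353-33056482, plus strand: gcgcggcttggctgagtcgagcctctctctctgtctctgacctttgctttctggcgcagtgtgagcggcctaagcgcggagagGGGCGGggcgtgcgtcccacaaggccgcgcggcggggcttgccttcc
Rpl12, chr2:32961612-32961741, plus strand: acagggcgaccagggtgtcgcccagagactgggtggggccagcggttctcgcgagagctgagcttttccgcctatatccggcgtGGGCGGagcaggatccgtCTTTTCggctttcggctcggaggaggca
Rpl24 holds an ETS and an NFY match, Rpl35a an SP/KLF match, and Rpl12 an SP/KLF match and a TOP-like run of 6 bases. The first 2 have no TOP-like run within 5 bases of the annotated start.

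Because gene ends include the far end of a gene, peaks were also read at annotated starts alone. A promoter entry with strand was at hand for 56 of the 76 genes, with 66 starts. Of the 56 genes, 28 had a peak within 1 kb of a start in every library, where 38.6% of the 17492 genes with an entry had, and 31 were open in every library by gene ends. A further 25 had a start peak in 1 to 4 libraries and 3 in none (Rpl19, Rpl24 and Rpl35a), where 46.1% of all genes with an entry had none. Rpl4, Rpl18 and Rps18 were open in every library through their gene ends but had a start peak in only part of them, and Rpl19 had no start peak in any. Rpl22, open in 1 library by its gene ends, had a start peak in 4.

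Summits of the start peaks lay just upstream of the start. Over the ribosomal protein genes with a start peak, the median distance was -77.5, -57.0 and -65.0 bp in high-glucose libraries 1, 2 and 3, and -80.0 and -74.0 bp in normal-glucose libraries 1 and 3, with negative values upstream. Over all genes with a start peak it was -48.0, -43.0 and -44.0 bp in high glucose, and -47.0 and -45.0 bp in normal glucose. Upstream summits made up 88.2%, 80.9% and 86.0% of the ribosomal protein genes' peaks in high glucose, and 89.7% and 78.0% in normal glucose. Over all genes they made up 70.2%, 67.3% and 69.2% in high glucose, and 68.1% and 69.3% in normal glucose. The spread of a gene's summits varied: for the 28 genes with a start peak in every library, the 5 summits of a gene spanned a median of 74.0 bp, with all 5 within 100 bp in 17 of the genes and spread further in 11. Rpl28 was among the steadiest, with summits 135 to 150 bp upstream, and Rpl41 had its start summits between 25 bp upstream and the start itself. Rps19 varied most, from 605 to 215 bp upstream.

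**Figure D4:**
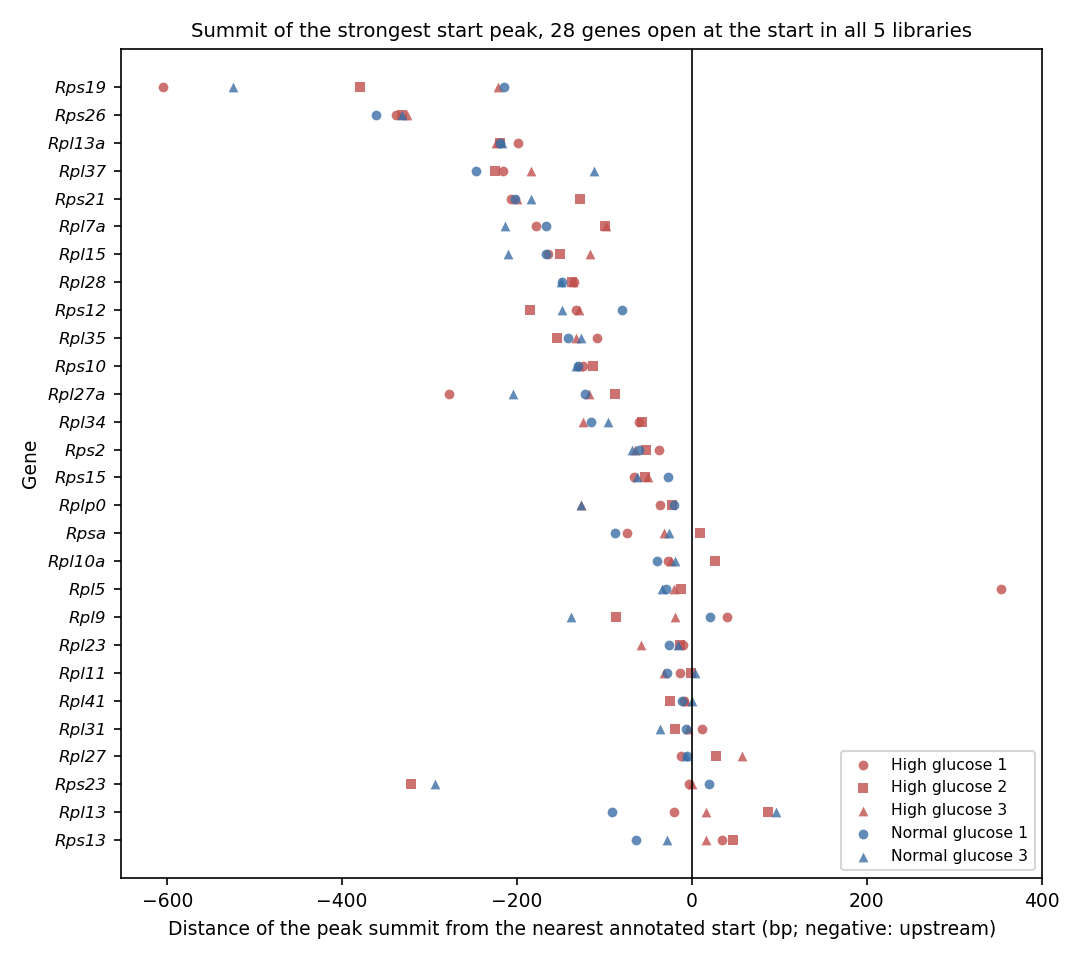
Distance in bp of the summit of the strongest start peak from the nearest annotated start (negative: upstream) for the 28 ribosomal protein genes with a start peak in all 5 libraries, ordered by their median. Red symbols are the 3 high-glucose and blue symbols the 2 normal-glucose libraries. Most genes cluster between the start and about 200 bp upstream, while Rps19, Rps23 and Rpl5 have 1 or more libraries far from the rest.

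Peaks were not always a ribosomal protein gene's own. In 15 of the 69 open genes (21.7%, where 25.6% of all open genes had this) the strongest peak lay within 1 kb of another protein-coding gene's end in every library where it was listed. The highest ranked were Rpl37 with Card6, Rpl15 with Nkiras1 and Rpl41 with Zc3h10. To which gene of a pair such a peak belongs cannot be told from the lists.

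Motifs were searched on both strands in 300 bases of each promoter (250 before and 50 after the most upstream annotated start), as exact letters. The ETS letters CTTCCG were in 39 of 56 ribosomal protein promoters (69.6%), against 21.5% of all 17492 promoters and 36.0% of the 6748 with a start peak in every library. A TOP-like start, a C within 5 bases of the start followed by at least 4 pyrimidines on the gene's strand, was in 26 (46.4%), against 18.8% of all promoters and 19.7% of those 6748. The YY1 letters AAGATGG were in 9 (16.1%), against 6.35% and 7.60%. The SP/KLF letters GGGCGG were in 33 (58.9%), against 46.3% of all promoters and 72.6% of those with a start peak in every library. NFY (CCAAT) was in 32.1% of the ribosomal protein promoters, against 39.2% and 42.6%. Of the rest, TATAAA was in 10.7% (13.3% and 5.25%), the E-box CACGTG in 8.93% (7.91% and 10.9%) and the NRF1 letters GCATGCG in 7.14% (4.50% and 7.63%). The ETS letters can overlap the SP/KLF letters, as in Rpl37, and TOP-like runs can hold the first bases of the ETS letters.

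Among the ribosomal protein genes the ETS letters were in 19 of 25 not open in every library (76.0%) and 20 of 31 open in every library (64.5%). The SP/KLF letters were in 12 of 25 (48.0%) and 21 of 31 (67.7%) of the same groups. Median GC content of the 300 bases was 54.3% in those not open in every library and 60.3% in those open in every library. It was 57.5% over all 56 ribosomal protein promoters, against 56.3% over all 17492 promoters and 62.7% over the 6748 with a start peak in every library. The splits of the ribosomal protein genes are descriptions of small groups, and no test was made.

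**Figure D5:**
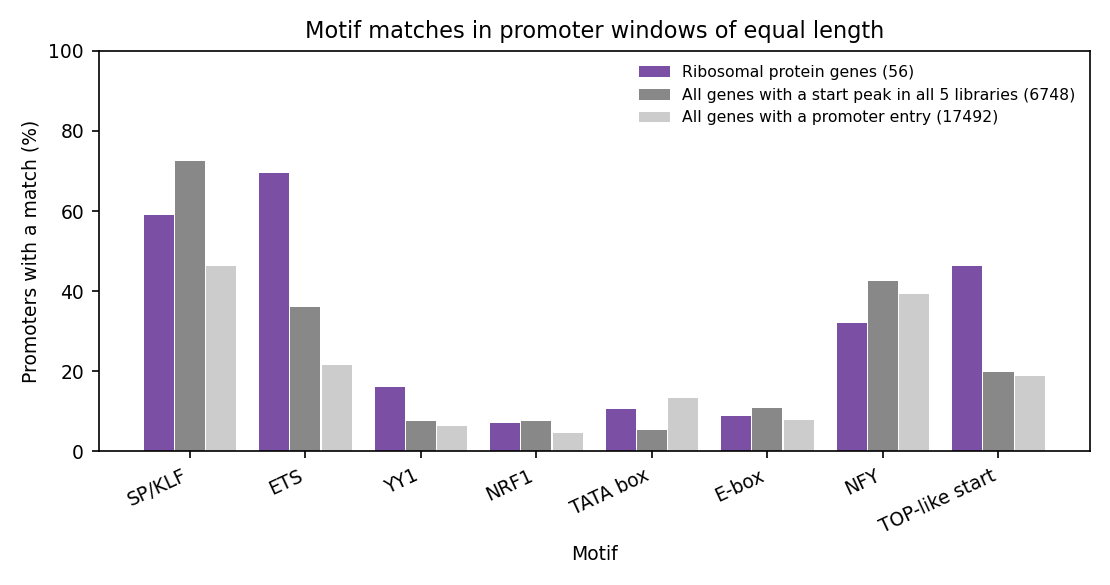
Percentage of promoters (300 bases) with a match to each motif, for 56 ribosomal protein genes (purple), the 6748 genes with a start peak in all 5 libraries (dark grey) and all 17492 genes with a promoter entry (light grey). The purple bars exceed both grey bars for ETS (69.6%), YY1 (16.1%) and the TOP-like start (46.4%).

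Other genes of the ribosome and of protein turnover are given for comparison by counts alone. The 78 mitochondrial ribosomal protein genes, which serve the separate ribosome of mitochondria, gave 47 open in every library (60.3%), 26 in 1 to 4 and 5 in none. Of them 0 were open only in high glucose (0.0640% of all genes) and 4 only in normal glucose (0.699% of all genes). In normal-glucose libraries 1 and 3 these 4 ranked 0.157 and 45.7 (Mrps2), 64.3 and 39.1 (Mrps22), 17.7 and 21.5 (Mrpl23), and 46.3 and 48.8 (Mrpl33). Their calls at equal list length are not given here. The 39 proteasome subunit genes gave 23 (59.0%), 12 and 4. Psmb5, a catalytic subunit, was open only in high glucose, at percentiles of 32.1, 69.7 and 52.2. The cytosolic ribosomal protein genes, at 56.6%, were close to both groups.

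Of 20 translation factor and other genes whose mRNAs also carry TOP tracts, 18 were open in every library (90%), and their median percentile was 84.0 to 90.4 over the 5 libraries. Tpt1, a growth-related TOP mRNA, ranked at least 98.9 in every library, and Eef2, the translocation factor, at least 91.3. Of 45 ribosome assembly and RNA polymerase I genes, 34 were open in every library (75.6%), and Ubtf and Nat10 in none. Of 23 growth control genes, 19 were open in every library (82.6%), among them Yy1 (lowest percentile 95.1), the ETS factor gene Gabpa (72.4) and Myc (27.6), while Larp1 was open in none and Mycn in high-glucose library 1 alone. Of 11 ribosome quality control genes, 8 were open in every library (72.7%). Nemf, which marks stalled large subunits, was open only in normal-glucose libraries 1 and 3, at percentiles of 59.1 and 34.0. Among 13 ribosomal protein genes and paralogs with other names, 4 were open in every library (Fau, Rps3a1, Rpl3l and Rpl36al), 4 in 1 to 4 libraries and 5 in none (38.5%).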

How the data were processed

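ATAC-seq peak lists of 6 libraries were used, each from 54000 cells and sequenced as 50 bp paired-end reads, per the labels' protocols. Both the groups and the replicate numbers are those of the labels. Per the submitters' processing notes, which give no roles or settings, mm10 was the build and the tools named were MACS2 2.1.0, Bowtie 1.0.0, cutadapt 1.0, DiffBind 1.12.3, edgeR, FastQC, Picard 1.90 and SAMtools 0.1.19. The sources used here do not give the treatment of duplicates, mitochondrial reads and the transposase offset, each of which could move a summit or a peak over the threshold.

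The deposited lists give the authors' own position and summit of each peak, with its fold enrichment (a ratio), its score, its p-value and its q-value, the last 2 as −log10. The lowest deposited −log10 q-value was 1.30. The lists hold no counts, so depth is unknown, and no interval or floor was computed. Scores were not used.

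Lists of at least 1000 peaks entered the comparisons. Gene coordinates, promoters and starts came from RefSeq on GRCm38.p6, which has mm10 coordinates, and all 76 symbols matched. Means were compared by two-sided exact permutation tests over libraries. The members, gene lists and rules were chosen with earlier results of these data known. Named genes were the 6 highest and 6 lowest ranked of those open in every library, those open in 1 condition, in 1 to 4 libraries or in none, and the 3 highest ranked with a shared peak. All other genes named, members and genes of the comparison lists alike, were added after their values were seen, and a few of the selected genes are left unreported here. The tools were pandas 2.3.3, SciPy 1.17.1, numpy 2.4.6 and matplotlib 3.10.9 under Python 3.11.15. Calls were tested on simulated data, and overlaps checked with bedtools 2.31.1. Alternatives were stricter peaks, equal list lengths, other windows, rankings and library sets, and pairing.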

Additional observations from a re-analysis of the deposited data

How the results depend on the processing

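The difference in open ribosomal protein genes per library was -5 as reported. With all 6 libraries, including the list of 66 peaks, it was 15.7, and leaving out 1 library at a time it ran from -11.0 to 1.00, the positive value being without normal-glucose library 3. No setting gave a p under 0.05, which the design does not allow. The count of 43 genes open in every library was 24 at a −log10 q of at least 5 and 0 with all 6 libraries, and 43 to 49 with 1 library left out. The share of all genes open in every library under these settings is not given here. The counts thus do not show whether the ribosomal protein genes changed more than all genes. At annotated starts, where only 56 genes could be read, the count was 28. Gene ends of those same 56 gave 31, a setting chosen after seeing the data. The number open only in high glucose was 0, or 0 to 2 with 1 library left out, with Rps27 and Rplp2 called without normal-glucose library 3. The number open only in normal glucose was 1, and it was 0 at a −log10 q of at least 5, at equal list length and with all 6 libraries. With 1 library left out it was 1 to 3, adding Rps3 and Rps14 without high-glucose library 2, and Rpl12 and Rps7 without normal-glucose library 1. Over all 21887 genes these settings called 320 and 716 genes open only in normal glucose, and 362 only in high glucose without normal-glucose library 3. The difference in median percentile, 6.79 as reported, was -0.458 at annotated starts alone and 3.88 to 9.49 with 1 library left out. The causes of these changes were not tested, beyond the fewer libraries or genes that a setting leaves.

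Libraries 1 and 3 of both conditions share replicate numbers. With the replicate number as a block the difference in open genes was -8.00 (exact sign-flip test over 2 pairs, p = 0.5) and that in median percentile 5.42 (same test, p = 0.5). With 2 pairs this test cannot give a p below 0.5, so it could not have changed either call. Deviations of same-numbered libraries correlated at 0.0464 for number 1 and -0.00924 for number 3. With only 2 normal-glucose libraries compared, their deviations mirror each other, and high-glucose library 1 gave -0.0464 with normal-glucose library 3. These correlations therefore cannot show whether same-numbered libraries share more than a number.

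Without counts, a gene with no peak in the lists used here is not shown to be closed, since depth is unknown and whether these lists hold every peak called near such genes was not tested. List length limits each count, and 3 libraries against 2 cannot show a difference at the usual threshold.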
